A study of Mus musculus with 19 samples.

Results

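The genes described here encode the proteins of the cytosolic ribosome, the particle that translates messenger RNA in the cytoplasm. They were taken by symbol: names that begin with Rpl or Rps and continue with a digit or the letter p, without symbols marked as pseudogenes and without the Rps6k kinases. A gene was kept where at least 2 libraries of a data set reached 1 RPKM (reads scaled to transcript length and to the reads of the library). The rule took 81 symbols and kept 80 of the 14290 genes with values in stimulated regulatory T cells (Tregs), and took 84 and kept 82 of the 14818 in freshly sorted Tregs. In all 83 genes were kept in either set and 79 in both. Rpl3l, the muscle paralog of Rpl3, was not kept in either set, and Rpl36al was kept in the stimulated set alone. Rps4l, Rpl32l and Rps3a1 were kept in the sorted set alone. These symbols were not among the 81 taken in the stimulated set, so their levels there are unknown and were not shown to be low. In the stimulated set the members were 29 genes of the small (40S) subunit, 42 of the large (60S) subunit, 3 of the stalk of the large subunit, 5 paralogs and Rps19bp1. The sorted set had 30, 42, 3 and 5 in the same classes and 2 other symbols, Rps19bp1 and Rpl32l. Rps19bp1 encodes a partner of the Rps19 protein and no ribosomal protein. GENCODE vM21 lists 81 of the 83 genes as protein coding and places Rpl32l and Rps4l among processed pseudogenes.

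Ribosomal proteins are needed in nearly equal numbers, since each ribosome holds a single copy of most of them. Their mRNAs are among the most abundant of a cell, and nearly all of them begin with a C followed by an unbroken run of pyrimidines, the 5′ terminal oligopyrimidine (TOP) motif, through which mTORC1 signalling adjusts their translation. New ribosomes also need rRNA synthesis by RNA polymerase I and a set of nucleolar assembly factors, many of which are targets of Myc. T cells enlarge this whole apparatus when their antigen receptor is engaged. Some subunits have a second gene of related sequence, a paralog. In some pairs, but not in all, its product can take the place of the usual protein. RNA levels and their ratios do not show whether it does.

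All 19 RNA sequencing libraries came from YFP-positive Tregs of C57Bl/6 Foxp3-CRE-YFP mice, in which Foxp3, the lineage gene of Tregs, drives Cre and a yellow fluorescent protein. In the stimulated set, Tregs were cultured for 16 hours on plate-bound anti-CD3 coated at 5 ug/mL, with 1 ug/mL anti-CD28 and 10 ng/mL IL-2. This set comprised 2 libraries of WT cells given the phosphodiesterase inhibitor pentoxifylline (500 ug/mL), 2 of c-Rel-deficient cells (c-Rel F/F alleles, no added agent stated), and 2 of WT cells with water, the diluent. In the sorted set, uncultured cells from spleen and lymph nodes were activated (aTreg, CD62Llo CD44hi) or resting (rTreg, CD62Lhi CD44lo). It comprised p65-deficient (p65 F/F), c-Rel-deficient (c-Rel F/F) and WT aTregs with 2, 2 and 3 libraries, and rTregs of the same genotypes with 2 libraries each. c-Rel and p65 are NF-kB subunits encoded by Rel and Rela. Both the Cre driver and the sort restrict the model to cells that express Foxp3. The labels give no ages and do not say whether replicates came from separate animals, so that p-values measure the spread between these libraries, which may be technical.

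The labels were checked against marker genes before the results. Foxp3 ranged from 107 to 290 RPKM in the stimulated set and from 28.1 to 102 RPKM in the sorted set, and over all libraries Cd3e ranged from 202 to 519 RPKM and Cd4 from 188 to 318 RPKM. Rel measured 2.44 and 25.0 RPKM in stimulated c-Rel-deficient libraries, against 93.5 and 79.9 RPKM with pentoxifylline and 55.1 and 55.8 RPKM with water. The second of these libraries thus kept much of the Rel signal, and results for this group are given by library. In sorted cells Rel measured 1.56 and 3.01 RPKM in c-Rel-deficient aTregs and 5.37 and 1.39 RPKM in c-Rel-deficient rTregs, against 18.6, 21.3 and 22.0 RPKM in WT aTregs and 10.9 and 20.5 RPKM in WT rTregs. Rela measured 46.8 and 56.1 RPKM in p65-deficient aTregs and 69.4 and 59.9 RPKM in p65-deficient rTregs, against 68.3, 62.3 and 64.2 RPKM in WT aTregs and 71.5 and 69.0 RPKM in WT rTregs. A value over the whole gene does not check the loss of floxed exons of Rela. Relative to water replicate 1, the depth of the stimulated libraries was 0.793 and 0.682 with pentoxifylline, 0.915 and 0.853 for c-Rel-deficient cells and 0.949 for water replicate 2. The depth of the sorted libraries is unknown.

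Start sites of some of the genes named below are shown first, because the TOP motif begins at the first transcribed base. Rps6 and Rplp2 among them did not pass the limma threshold used below for pentoxifylline against water. Rpl10, Rps23 and Rps19bp1 passed it but are not shown, with runs of 1, 1 and 3 bases. RefSeq promoters of build GRCm38.p6 were available for 62 of the 83 genes. Each line gives 30 bases, from 15 before the annotated start to 15 from it onward, 5′ to 3′ on the gene's own strand. Capitals mark the pyrimidine run that touches the start base or the 5 bases before it. The first 7 genes have a run of at least 8 bases, which in Rps27l ends before the start base. The last pair, both paralogs, have no run of that length.
Rps27l (chr9:66946071-66946100, plus strand): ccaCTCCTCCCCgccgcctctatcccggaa
Rps27 (chr3:90213634-90213663, minus strand): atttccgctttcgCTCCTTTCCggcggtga
Rpl28 (chr7:4792950-4792979, plus strand): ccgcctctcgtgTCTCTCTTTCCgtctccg
Rpl15 (chr14:18270972-18271001, minus strand): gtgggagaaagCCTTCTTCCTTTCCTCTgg
Rpl34 (chr3:130730323-130730352, minus strand): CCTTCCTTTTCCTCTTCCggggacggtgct
Rps6 (chr4:86857353-86857382, minus strand): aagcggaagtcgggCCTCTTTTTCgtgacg
Rplp2 (chr7:141447636-141447665, plus strand): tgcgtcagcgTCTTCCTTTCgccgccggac
Rpl22l1 (chr3:28805493-28805522, plus strand): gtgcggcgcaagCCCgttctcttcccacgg
Rpl7l1 (chr17:46782642-46782671, minus strand): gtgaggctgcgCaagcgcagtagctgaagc

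A run of at least 8 pyrimidines touched an annotated start base or the 5 bases before it in 21 of the 62 ribosomal protein genes, or 33.9%. Among the 12012 genes of the deposited tables with a promoter the share was 9.53%. From 250 bases before to 50 after the start, on either strand, CCGGAAG (a core recognised by ETS factors) was found in 24 of the 62 genes, or 38.7%, against 17.3% of all promoters of the same length. AAGATGGC, the core of the YY1 motif, was found in 6 genes (9.68% against 4.65%), and TATAAA in 8 (12.9% against 9.73%). These are matches of letters and show no binding, and an annotated start that is off by a few bases hides a run.

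The ribosomal protein genes gave between 6.67% and 12.5% of the summed RPKM of a library. In the stimulated set 16 members averaged at least 1000 RPKM and 45 at least 100 RPKM, with a median of 151 RPKM. Rplp1 was the highest, with 3163 and 3407 RPKM with pentoxifylline, 4300 and 2843 RPKM in c-Rel-deficient cells and 2352 and 3821 RPKM with water. Rplp1 encodes 1 of the acidic stalk proteins, which recruit the elongation factors to the ribosome. Rpl8, Rpl4 and Rps15 were also among the highest, with means of 2717, 2273 and 2040 RPKM. Rpl8 lies near the peptidyl transferase centre of the large subunit. Rplp1 and Rpl8 also led the sorted set, with means of 1864 and 1601 RPKM, and Rplp0 averaged 1242 RPKM there. Here 7 members averaged at least 1000 RPKM and 64 at least 100 RPKM, with a median of 320 RPKM.

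At the other end, several core subunits measured a few RPKM. In the stimulated set Rpl5, Rpl31, Rpl23a and Rpl30 averaged 6.23, 5.33, 5.00 and 1.25 RPKM. Rpl5 binds 5S rRNA and Mdm2, Rpl23a lies at the exit of the peptide tunnel, and all 4 are required parts of the large subunit. In the sorted set the lowest core subunits were Rps23 and Rpl34, with means of 5.74 and 2.32 RPKM. Rps23 is part of the decoding centre. The testis paralog Rpl39l was lowest in both sets, with means of 0.935 and 1.05 RPKM, while Rpl39 itself ranged from 180 to 251 RPKM in the stimulated set.

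The 2 deposited tables, which were normalized separately, gave these genes different levels. Of the 79 genes in both, 17 were over 10 times lower in the stimulated table, against 0.235% of 8919 other genes of at least 1 RPKM. Rpl30 had a mean of 1.25 RPKM in the stimulated table and 341 RPKM in the sorted one, and Rpl23a had 5.00 and 903 RPKM. The means of Rps6, whose phosphorylation by S6 kinase is a common readout of mTORC1, were 24.3 and 905 RPKM. The ranks of the means had a Spearman correlation of 0.54 between the tables over the 79 members and 0.87 over the other genes. At the same time 39 members were higher in the stimulated table.

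Ribosomal protein genes have many retrotransposed copies in the mouse genome, and reads from both can be alike. Over the 83 genes a median of 50.7% of the 50-base windows of the coding transcripts occurred also in a transcript of another gene, and 42 genes shared at least 50%. Rpl23a shared 85.7% of its windows with 29 other genes, of which 28 are pseudogenes, and Rps27 shared 98.6%. At the other end 3 genes shared none. Of the 17 genes over 10 times lower in the stimulated table, 14 shared at least 50%. Across the 79 genes the shared percentage and the log2 ratio of the tables, stimulated over sorted, had a Spearman correlation of -0.57, as a description over genes that share libraries. The median level was 76.7 RPKM for members with at least 50% shared and 226 RPKM for the rest in the stimulated set, and 336 and 264 RPKM in the sorted set. How the authors counted reads that fit several genes is not given in the sources used here, and its part in these levels was not tested. Values of genes with many shared windows are therefore uncertain, both as levels and as changes.

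**Figure D1:**
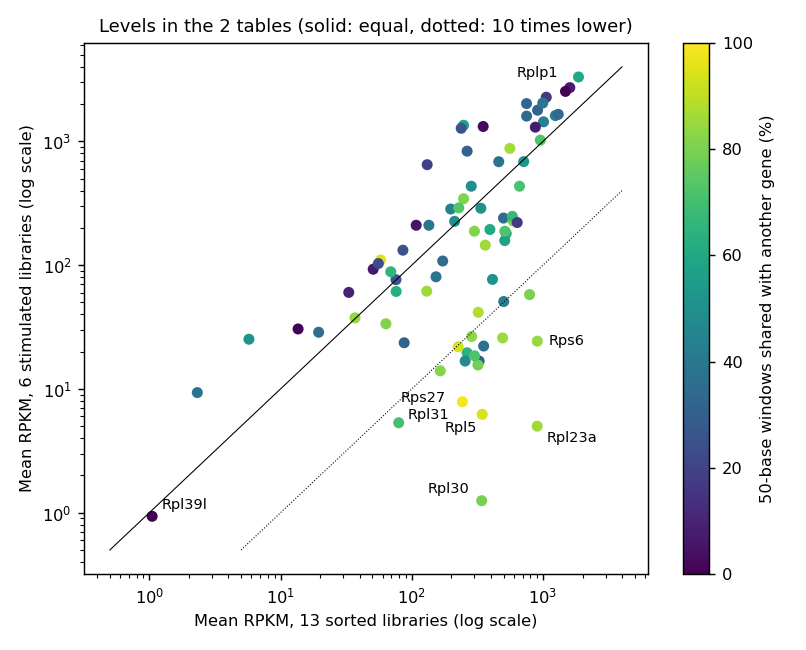
Mean RPKM of the 79 ribosomal protein genes of both tables, in the 6 stimulated libraries (vertical, log scale) against the 13 sorted libraries (horizontal, log scale), coloured by the percentage of 50-base windows shared with another gene. The solid line marks equal values and the dotted line values 10 times lower in the stimulated table. The 17 genes below the dotted line include Rpl30, Rpl23a, Rpl5, Rps6 and Rps27.

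The summed level of the members varied widely between libraries of 1 group. The sums were 40212 and 36669 RPKM with pentoxifylline, 49729 and 38200 RPKM in c-Rel-deficient cells and 30331 and 41813 RPKM with water. All 3 stimulated groups overlapped in these sums. In aTregs the sums were 28949 and 30235 RPKM for p65-deficient, 25684 and 33731 RPKM for c-Rel-deficient and 31072, 22166 and 41668 RPKM for WT cells. In rTregs they were 34446 and 46592 RPKM for p65-deficient, 33772 and 51922 RPKM for c-Rel-deficient and 40657 and 39434 RPKM for WT cells. WT aTreg replicate 3 lay above both WT rTreg libraries, while the 6 other aTreg libraries lay below all 6 rTreg libraries.

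**Figure D2:**
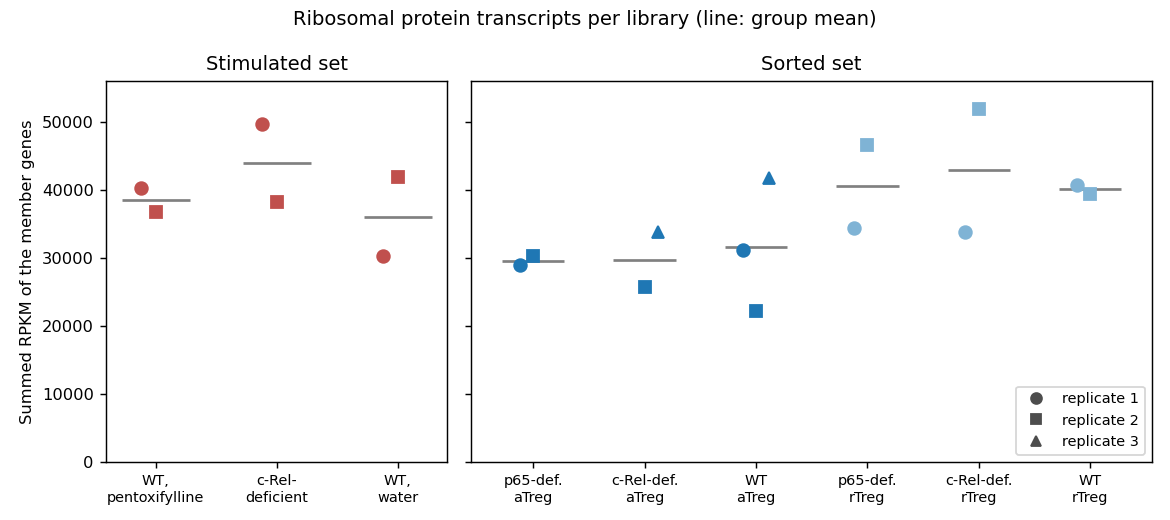
Summed RPKM of the ribosomal protein genes in each library (vertical), by group (horizontal), with the stimulated set on the left and the sorted set on the right. Lines mark group means. The WT aTreg libraries range from 22166 to 41668 RPKM, and the highest of them stands above the other aTreg libraries.

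The members moved together between libraries, also within a group. The median SD within groups was 0.26 on the log2 scale for members and 0.17 for other genes in the stimulated set, and 0.34 and 0.18 in the sorted set. For other genes of at least 100 RPKM it was 0.19 and 0.21. The median Pearson correlation between pairs of members was 0.48 over the 6 stimulated libraries and 0.94 over the 13 sorted ones, which share library and depth. In stimulated cells the members with the most even group means included Rpl27a and Rps15a, with SDs of 0.05 and 0.09 on the log2 scale. Those with the most uneven were Rpl36a, Rpl27 and Rps27l with 1.13, 0.83 and 0.83. In sorted cells Rps27l, Rpl7l1 and Rpl22 were the most even, at 0.09, 0.10 and 0.12, and Rps19, Rps4l and Rpl12 the most uneven, at 0.45, 0.41 and 0.39.

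The first comparison asks what pentoxifylline did to these genes in stimulated WT Tregs. The bulk of the highly expressed ribosomal protein genes was not called: the median change over the 80 members, pentoxifylline minus water, was 0.05 on the log2 scale. In limma with Benjamini-Hochberg adjustment over 9945 genes, 13 members passed the threshold of 0.05, 3 higher and 10 lower with pentoxifylline, or 16.2% of the members. Across all genes tested 43.5% passed, 19.6% higher and 23.9% lower. Those called included 4 of 29 genes of the small subunit, 5 of 42 of the large subunit, none of the 3 stalk genes and 3 of the 5 paralogs. Of the 45 members of at least 100 RPKM 1 was called, the paralog Rps27l, and of the 35 below that level 12. Both pentoxifylline libraries lay below both water libraries in 20 members and above them in 15, where the background was 38.3% and 37.2%. The count was 6 without water replicate 2, where 22.6% of genes were called. In bulk RNA a change in the share of cells of a type and a change in RNA per cell cannot be told apart.

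The sum over the members differed more between water replicates 1 and 2 than between the means of the pentoxifylline and water groups. Set against the water library of the same number, the median member was 0.26 higher with pentoxifylline in replicate 1, with 54 of 80 members above 0, and 0.27 lower in replicate 2, with 62 below 0. The median change over the members was -0.20 without water replicate 1 and 0.22 without water replicate 2. The direction of the ribosomal protein genes as a whole thus changed with the water library used. Libraries also differed in depth, as given above, and in markers of other cells. The summed level of 10 B cell markers was 12.8 to 19.8 RPKM with pentoxifylline and 41.0 to 52.8 RPKM with water. Over the stimulated libraries H2-Aa reached 17.6, H2-Ab1 13.8, H2-Eb1 11.1 and Cd79b 7.94 RPKM, while Pax5 and Ebf1 did not exceed 0.113 and 0.0925 RPKM. The sum of 5 NK and cytotoxic markers was 8.46 to 10.1 RPKM with pentoxifylline and 36.9 to 56.9 RPKM with water. The part of these differences in the results was not tested.

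None of the stalk genes was called. Rplp0, the anchor of the stalk on the large subunit, measured 1668 and 1565 RPKM with pentoxifylline and 1223 and 1743 RPKM with water (log2 change 0.15 ± 0.30 SE, limma adjusted p = 0.723). Rplp1 had a log2 change of 0.13 ± 0.38 SE (limma adjusted p = 0.806). Rplp2, its dimer partner, measured 785 and 818 RPKM with pentoxifylline and 492 and 1009 RPKM with water (0.19 ± 0.36 SE, adjusted p = 0.706). In each of these genes the pentoxifylline libraries lay between those with water.

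The clearest falls were in 2 paralogs. Rps27l (chr9:66946086-66949516, plus strand, GRCm38), a paralog of Rps27 known as a target of p53, measured 44.0 and 52.2 RPKM with pentoxifylline and 113 and 145 RPKM with water. It fell by 1.40 ± 0.17 SE on the log2 scale (limma adjusted p = 0.00122), and 22.4% of its windows are shared. Rpl7l1 (chr17:46773907-46782672, minus strand), a paralog of Rpl7, measured 27.4 and 31.9 RPKM with pentoxifylline and 58.9 and 76.3 RPKM with water. It fell by 1.17 ± 0.17 SE (limma adjusted p = 0.00211). Neither gene's groups overlapped, and c-Rel-deficient libraries stood at the level of water or above, with 127 and 139 RPKM for Rps27l and 88.2 and 78.2 RPKM for Rpl7l1. After adjustment of its p-values, the authors' deposited table gave log2 changes of -1.41 (adjusted p = 1.61e-06) for Rps27l and -1.20 (adjusted p = 5.24e-06) for Rpl7l1.

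Another paralog rose. Rpl22l1 (chr3:28805436-28807424, plus strand) measured 113 and 88.5 RPKM with pentoxifylline and 69.5 and 62.9 RPKM with water. The log2 change was 0.59 ± 0.16 SE (limma adjusted p = 0.021), and c-Rel-deficient libraries stood at 102 and 94.3 RPKM. Rpl22l1 shares 65.6% of its windows with other genes. The authors' deposited table gave it an adjusted p of 0.0542. Its partner Rpl22, whose protein represses the Rpl22l1 transcript and is needed for alpha-beta T cell development, measured 217 and 202 RPKM with pentoxifylline and 173 and 211 RPKM with water. The ratio of Rpl22l1 to Rpl22 was 0.521 and 0.438 with pentoxifylline, 0.416 and 0.452 in c-Rel-deficient cells and 0.401 and 0.299 with water. The call on Rpl22l1 was lost without pentoxifylline replicate 1 (adjusted p = 0.127) and without water replicate 2 (adjusted p = 0.102).

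The usual partners gave other values than their paralogs. Rpl7 measured 630 and 681 RPKM with pentoxifylline and 561 and 716 RPKM with water, and the ratio of Rpl7l1 to Rpl7 was 0.0435 and 0.0469 with pentoxifylline, 0.103 and 0.116 in c-Rel-deficient cells and 0.105 and 0.107 with water. Rps27 measured 16.2 and 9.88 RPKM with pentoxifylline and 5.02 and 6.12 RPKM with water, a rise of 1.12 ± 0.29 SE on the log2 scale (limma adjusted p = 0.0182). The ratio of Rps27l to Rps27 was 2.72 and 5.28 with pentoxifylline, 20.5 and 36.0 in c-Rel-deficient cells and 22.4 and 23.6 with water. In the sorted table this ratio lay between 0.118 and 0.400. The Rps27 value is uncertain, since 98.6% of its windows are shared, its call was lost without pentoxifylline replicate 1 (adjusted p = 0.0996) or either water library (0.0848 and 0.0591), and the authors' deposited table did not call it (adjusted p = 0.238).

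**Figure D3:**
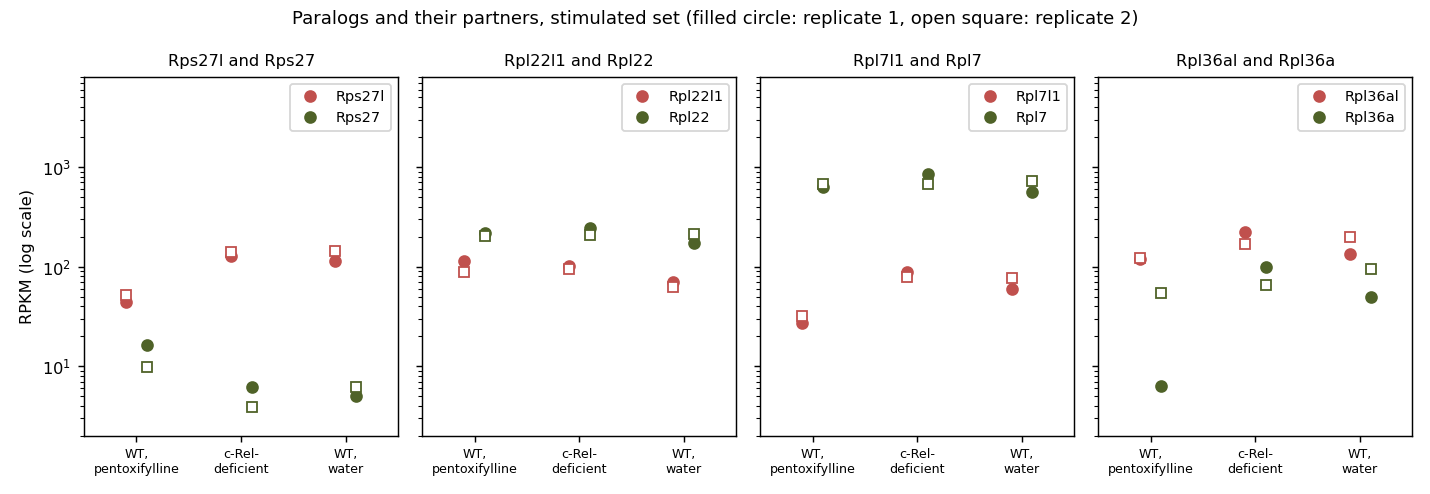
RPKM (vertical, log scale) of 4 paralogs and their partners in the 6 stimulated libraries, by group (horizontal), with a filled circle for replicate 1 and an open square for replicate 2. Rps27l at 44.0 and 52.2 RPKM and Rpl7l1 at 27.4 and 31.9 RPKM with pentoxifylline lie below every other library, and Rpl36a differs between the pentoxifylline libraries.

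Rpl36a and its paralog Rpl36al differed in spread. Rpl36a measured 6.36 and 53.9 RPKM with pentoxifylline, 98.6 and 66.0 RPKM in c-Rel-deficient cells and 49.5 and 95.2 RPKM with water. The pentoxifylline libraries disagreed so widely that the log2 change of -1.84 ± 0.84 SE was not called in limma (adjusted p = 0.113), while the authors' deposited table gave -1.78 with an adjusted p of 1.94e-06. Rpl36al measured 119 and 121 RPKM with pentoxifylline and 134 and 198 RPKM with water (-0.44, limma adjusted p = 0.144). Rpl3, a core protein near the peptidyl transferase centre, measured 58.8 and 134 RPKM with pentoxifylline and 67.0 and 180 RPKM with water. Rps4x, the X-linked gene of a small subunit protein, measured 1115 and 1068 RPKM with pentoxifylline and 835 and 1063 RPKM with water. Rpl39l, at 0.573 and 0.583 RPKM with pentoxifylline and 0.511 and 0.838 RPKM with water, stayed under 1 RPKM.

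Among the core subunits the called members were of low measured level. Rps29, a small zinc-binding protein of the small subunit, measured 27.8 and 63.9 RPKM with pentoxifylline and 16.2 and 16.4 RPKM with water, with 26.5 and 21.6 RPKM in c-Rel-deficient cells. It rose by 1.35 ± 0.34 SE on the log2 scale (limma adjusted p = 0.0171), and the call was lost without either water library (adjusted p = 0.063 and 0.0774). Rpl28 measured 6.85 and 9.46 RPKM with pentoxifylline and 18.1 and 16.8 RPKM with water. Its log2 change was -1.07 ± 0.22 SE (limma adjusted p = 0.00796, and 0.06 in the authors' deposited table). Rpl15, whose product sits deep in the large subunit, measured 7.79 and 9.50 RPKM with pentoxifylline and 16.6 and 20.6 RPKM with water, and fell by 1.06 ± 0.16 SE (limma adjusted p = 0.00266). In both falls the groups did not overlap, and c-Rel-deficient libraries lay above those with water, at 29.4 and 20.2 RPKM for Rpl28 and 23.3 and 22.8 RPKM for Rpl15.

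The other falls were in Rps23, Rpl23a, Rps27a, Rpl34 and Rpl10, named because they complete the called members, with log2 changes of -1.04, -0.87, -0.83, -0.82 and -0.64. Rps27a encodes ubiquitin fused to a small subunit protein, and Rpl10 joins the large subunit late in its assembly. Rpl10 measured 18.1 and 16.4 RPKM with pentoxifylline and 26.8 and 27.3 RPKM with water, with 85.4% of its windows shared, and its call was lost without pentoxifylline replicate 2 (limma adjusted p = 0.0636) or either water library (0.0513 and 0.0743). The last of the falls was in Rps19bp1, the non-ribosomal partner of Rps19. It measured 16.8 and 13.4 RPKM with pentoxifylline and 29.6 and 40.1 RPKM with water. Its log2 change was -1.17 ± 0.18 SE (limma adjusted p = 0.00278). The authors' deposited table called 12 members, 4 higher and 8 lower, against 22.7% of all its genes, with Rps6 (0.78, adjusted p = 0.0259) among the rises. Of the 13 members called in limma 6 were also called in the authors' deposited table, namely Rps29, Rps27l, Rpl7l1, Rpl15, Rps23 and Rps19bp1. Its adjusted p was 0.127 for Rps27a, 0.2 for Rpl10, 0.368 for Rpl34 and 0.434 for Rpl23a. Rps6 measured 19.1 and 64.4 RPKM with pentoxifylline and 14.8 and 17.6 RPKM with water.

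**Figure D4:**
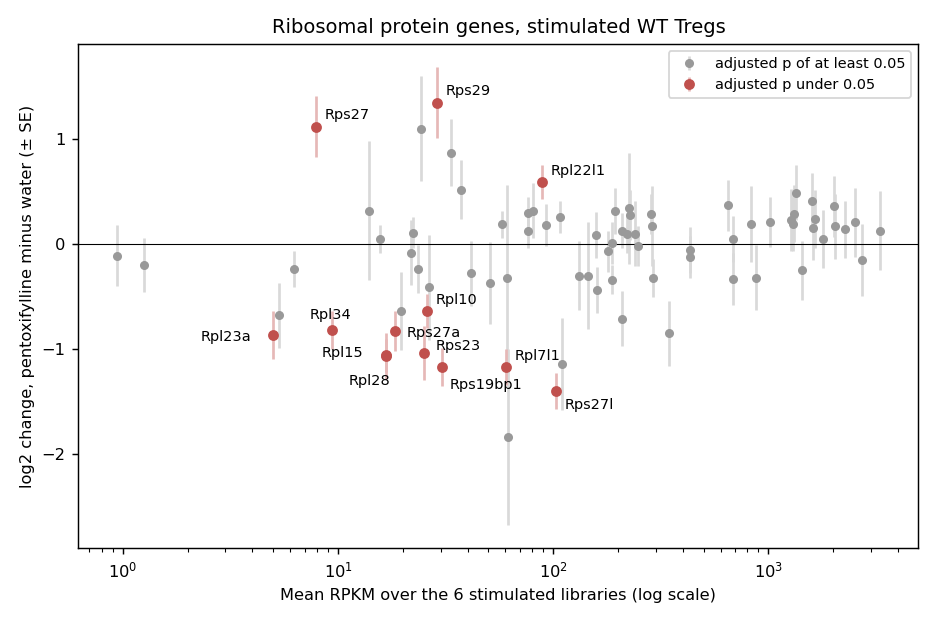
Log2 change with its standard error, pentoxifylline minus water (vertical), of the 80 ribosomal protein genes against their mean RPKM over the 6 stimulated libraries (horizontal, log scale). The 13 members with an adjusted p under 0.05 are red, and 12 of them lie below 100 RPKM.

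Members with and without a long pyrimidine run at the start were set side by side, with no test of a difference. The median log2 change, pentoxifylline minus water, was 0.10 over the 20 members with a run of at least 8 bases, of which 5 were called, and -0.10 over the 40 without, of which also 5 were called. In the start sites printed above, Rps27 with its rise and Rpl28, Rpl15 and Rpl34 with their falls carry such a run across the start base. The run of Rps27l, which also fell, ends before the annotated start. A second annotated start has a run of 4 bases in Rps27l and of 1 base in Rpl34. Other mRNAs of the TOP class, 27 genes, had a median of 0.11, with 7 higher and 3 lower, where 19.6% and 23.9% of all genes were called. They include translation factors, small nucleolar RNA hosts, other genes such as Vim, and Gnb2l1, whose product is part of the small subunit. Npm1 is on this list and also on that of the assembly genes below. It measured 220 and 191 RPKM with pentoxifylline and 308 and 422 RPKM with water. Gas5, Snhg5 and Snhg12, whose introns hold small nucleolar RNAs, had log2 changes of 1.53, 1.58 and 1.58.

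Genes that build ribosomes were measured beside those of its proteins. Of 25 genes for rRNA synthesis and ribosome assembly, 24 were lower with pentoxifylline and none higher, with a median log2 change of -2.20. Rrp12, an export factor of the subunits, fell by 3.38 ± 0.33 SE (limma adjusted p = 0.000733), Polr1b, the second subunit of RNA polymerase I, by 3.11 ± 0.31 SE (0.000733) and Dkc1, the pseudouridine synthase, by 2.82 ± 0.25 SE (0.000613). Of 76 mitochondrial ribosomal protein genes 62 were lower and 1 was higher, with a median of -0.90. Myc, which drives ribosome production in many cells, measured 25.4 and 47.2 RPKM with pentoxifylline and 157 and 219 RPKM with water, and fell by 2.40 ± 0.31 SE (limma adjusted p = 0.00141). The 697 other genes of at least 100 RPKM had a median of -0.13, and the 493 other genes with short coding transcripts (under 1000 bases) had -0.43. Of 20 mTORC1 pathway genes 4 were higher and 3 lower, against the same 19.6% and 23.9% of all genes.

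The second comparison set stimulated c-Rel-deficient Tregs against WT Tregs with water. No member passed, and limma called none of the 9945 genes (0%). At an unadjusted p under 0.05 there were 11 members and 791 genes (7.95%). The median of the members was 0.30 and that of all genes 0.06, and 74 of 80 members lay above 0. In 36 members both c-Rel-deficient libraries exceeded both libraries with water, against 24.2% of all genes, and in none were both lower, against 16.3% of all genes. Rpl22l1 had a log2 change of 0.57 ± 0.16 SE with a limma adjusted p of 0.444. The authors' deposited table called 0 of the 80 members against 2.14% of its genes.

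The offset differed between libraries. Against the water library of the same number the median member was 0.61 higher in c-Rel-deficient replicate 1, with 77 of 80 members above 0, and 0.01 higher in replicate 2, with 41 above 0. Replicate 1 is the library with 2.44 RPKM of Rel and replicate 2 that with 25.0 RPKM, while water replicate 1 had the lowest member sum of the set. Leaving out 1 library at a time gave medians from 0.10 to 0.50. Rplp1 measured 4300 and 2843 RPKM in c-Rel-deficient libraries and 2352 and 3821 RPKM with water, and Rpl8 measured 3839 and 2640 RPKM against 2121 and 3088 RPKM. In both genes the groups overlapped. Myc stood at 271 and 210 RPKM in c-Rel-deficient cells and 157 and 219 RPKM with water. The 10 B cell markers summed to 8.80 to 9.13 RPKM in c-Rel-deficient cells and 41.0 to 52.8 RPKM with water. The 5 NK and cytotoxic markers, of which Nkg7 reached the highest level, summed to 14.8 to 35.1 and 36.9 to 56.9 RPKM. The part of both sets of markers was not tested.

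The third comparison set the chemical treatment of WT cells directly against the c-Rel-deficient cells. Here 22 of the 80 members were called, or 27.5%, with 1 higher and 21 lower with pentoxifylline, against 48.4% of all genes with 21.6% higher and 26.8% lower. The median of the members was -0.24 and that of all genes 0.00. Both pentoxifylline libraries lay below both c-Rel-deficient libraries in 38 members and above them in 5, where the background was 39.5% and 38.0%. Without c-Rel-deficient replicate 1 the count of called members was 14, where 32.9% of genes were called. Among those called were 10 of 42 genes of the large subunit, 7 of 29 of the small subunit and 4 of 5 paralogs, and no stalk gene. Of the 13 members called against water, 11 were also called here, but both comparisons use the same pentoxifylline libraries.

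Of the members that differed here, Rpl7l1 (-1.47 ± 0.17 SE, limma adjusted p = 0.000745), Rps27l (-1.46 ± 0.17 SE, adjusted p = 0.000793) and Rpl28 (-1.54 ± 0.22 SE, adjusted p = 0.00158) were those described above. Rpl27 measured 10.1 and 8.95 RPKM with pentoxifylline and 19.7 and 48.5 RPKM in c-Rel-deficient cells. Its log2 change was -1.65 ± 0.37 SE (limma adjusted p = 0.00949), and its c-Rel-deficient libraries were far apart. Of its windows 64.1% are shared, and of those of Rpl35 95.1%. Rpl35, which lies at the tunnel exit, measured 88.6 and 30.5 RPKM with pentoxifylline and 174 and 136 RPKM in c-Rel-deficient cells, a log2 change of -1.55 ± 0.44 SE (limma adjusted p = 0.0228), lost without c-Rel-deficient replicate 1 (0.0837). Rps27 was the 1 member that rose, by 1.28 ± 0.29 SE (limma adjusted p = 0.00961, and 0.054 without pentoxifylline replicate 1). Rpl22l1 was at nearly the same level in both groups, with a log2 difference of 0.03 ± 0.16 SE (limma adjusted p = 0.906).

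In uncultured cells the comparison of activated with resting Tregs gave one direction for nearly every member. The median log2 change, aTreg minus rTreg, was -0.42 in p65-deficient, -0.49 in c-Rel-deficient and -0.38 in WT cells, while the medians over all 10656 genes were -0.06, -0.05 and -0.06. Of the 82 members 80, 79 and 79 lay below 0, and 78 did so in all 3 genotypes. Against the rTreg library of the same genotype and replicate number, the median was -0.22 and -0.59 in p65-deficient and -0.35 and -0.83 in WT aTregs. It was -0.97 in the 1 c-Rel-deficient pair. The rTreg library of that pair had the highest member sum (51922 RPKM) and the lowest Foxp3 (28.1 RPKM) of the sorted set. In each of these pairs 77 to 82 members lay below 0. Even so no member passed the adjusted threshold in limma in any genotype, where the background was 3.17% of genes in p65-deficient, 0% in c-Rel-deficient and 12.2% in WT cells. At an unadjusted p under 0.05 there were 3, 4 and 3 members, against 21.9%, 14.0% and 33.3% of genes. With the replicate number as a block, limma called 1 member, Rps19, in c-Rel-deficient (adjusted p = 0.0401) and in WT cells (adjusted p = 0.0244), with 8.46% and 19.5% of genes called, and none in p65-deficient cells with 6.86%. In the sorted table this number goes with the libraries that share equal values, and the pairing was not tested further. The spread within groups, 0.34 on the log2 scale, was close to the size of the change. Most members varied together between these libraries, so that the 82 directions are not 82 separate observations.

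Groups that did not overlap give another view of the spread. All aTreg libraries lay below all rTreg libraries of the genotype in 72 of 82 members for p65-deficient cells, 39 for c-Rel-deficient cells and 23 for WT cells. Over all genes this held for 37.0%, 30.2% and 21.9%. Without WT aTreg replicate 3, the library with the highest member sum among the aTregs, the WT median was -0.58 and limma called 6 members, all lower, and 22.5% of genes. Without WT rTreg replicate 2, limma called 2 members and 27.8% of genes. The authors' deposited table, whose model is not described, called 12 of 82 members in WT aTregs against rTregs, all lower, with a median of -0.89. Of all its genes 11.2% were called, and 3.25% were called lower. Among these were Rpl4, Rpl15, Rpl19, Rpl35, Rps16, Rps18 and Rps19.

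By subunit the medians in p65-deficient, c-Rel-deficient and WT cells were -0.44, -0.55 and -0.39 for the small subunit, and -0.43, -0.43 and -0.40 for the large one. The 5 paralogs had medians of -0.05, 0.00 and 0.06, with no test of a difference from the subunits, and among them Rpl22l1 (-0.39, -0.34 and -0.32) and Rpl7l1 (-0.13, -0.13 and -0.20) lay below 0 in all 3 genotypes. The medians of both subunits lay close together. Rps19, whose human counterpart is mutated in Diamond-Blackfan anaemia, measured 125 and 146 RPKM in p65-deficient aTregs and 205 and 293 RPKM in p65-deficient rTregs. It measured 116 and 169 RPKM in c-Rel-deficient aTregs and 197 and 298 RPKM in c-Rel-deficient rTregs, and 147, 109 and 239 RPKM in WT aTregs against 297 and 239 RPKM in WT rTregs. Its aTreg and rTreg libraries were apart in both mutants and met at 239 RPKM in WT. The log2 changes were -0.86 ± 0.35 SE (limma adjusted p = 0.191), -0.79 ± 0.35 SE (0.353) and -0.77 ± 0.32 SE (0.127). In the authors' deposited table the WT change of Rps19 was -1.32 with an adjusted p of 0.00103.

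Rpl12, a neighbour of the stalk base, measured 183 and 147 RPKM in p65-deficient, 122 and 237 RPKM in c-Rel-deficient and 186, 96.9 and 176 RPKM in WT aTregs, against 207 and 321, 201 and 358, and 226 and 297 RPKM in rTregs of the same genotypes. Its WT change of -0.82 ± 0.38 SE was not called (limma adjusted p = 0.16). Rplp1 measured 1625 and 1428 RPKM in p65-deficient, 1304 and 1512 RPKM in c-Rel-deficient and 1718, 1174 and 2514 RPKM in WT aTregs. In rTregs it measured 1757 and 2433, 1754 and 3073, and 1917 and 2025 RPKM in the same order, so that only the WT groups overlapped. The lowest adjusted p among the members belonged to Rps23 in WT cells, with a log2 change of -0.38 ± 0.13 SE (limma adjusted p = 0.0766). It measured 5.21, 5.01 and 5.29 RPKM in WT aTregs and 7.55 and 6.24 RPKM in WT rTregs.

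A few members did not share the direction. Rps4l and Rpl39l lay above 0 in all 3 genotypes and Rps19bp1 and Rps27l had mixed signs. Rps4l, annotated as a transcribed processed pseudogene of the Rps4 family, measured 4.52 and 7.11 RPKM in p65-deficient, 5.12 and 4.72 RPKM in c-Rel-deficient and 3.51, 2.73 and 3.33 RPKM in WT aTregs. In rTregs of the same genotypes it measured 4.04 and 4.31, 2.99 and 2.83, and 3.66 and 1.65 RPKM. The c-Rel-deficient change of 0.67 ± 0.28 SE did not pass (limma adjusted p = 0.324). Rpl39l ranged from 0.519 to 2.32 RPKM over the 13 libraries, near the 0.5 added before log2 was taken. It measured 1.05, 0.968 and 0.794 RPKM in WT aTregs and 1.17 and 0.519 RPKM in WT rTregs. Rps27l measured 57.2, 58.3 and 64.0 RPKM in WT aTregs and 75.6 and 43.1 RPKM in WT rTregs, so that the groups overlapped. Rpl7l1 and Rpl22l1 ranged from 26.9 to 39.4 and from 53.2 to 94.0 RPKM over the 13 libraries, and Rpl32l from 210 to 560 RPKM.

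**Figure D5:**
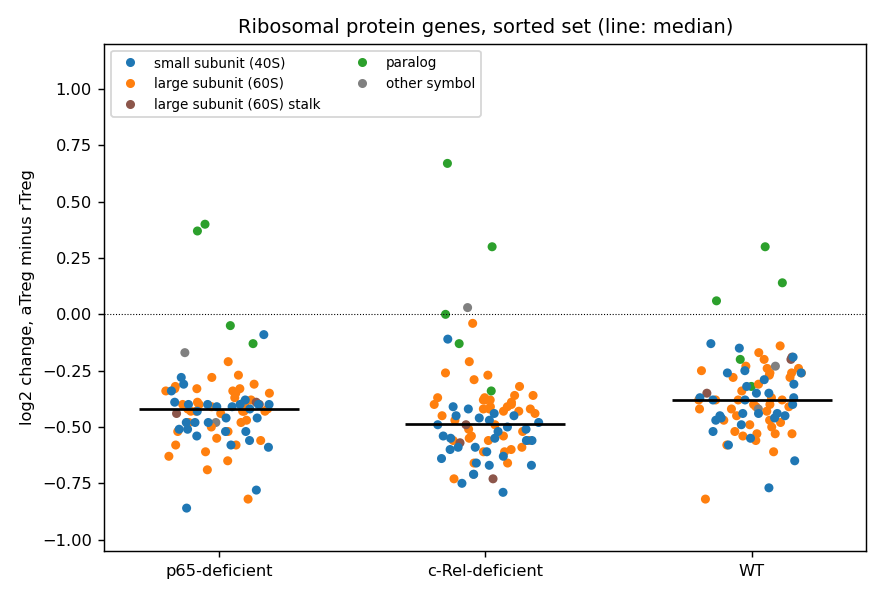
Log2 change, aTreg minus rTreg (vertical), of each of the 82 ribosomal protein genes in p65-deficient, c-Rel-deficient and WT cells (horizontal), coloured by subunit, with lines at the medians of -0.42, -0.49 and -0.38. Nearly all points lie below 0. Most of the few points above it belong to 2 paralogs of low level. These are Rps4l, annotated as a pseudogene (at most 7.11 RPKM), and Rpl39l (at most 2.32 RPKM).

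Other gene groups of translation also had medians below 0 in WT aTregs against rTregs. The 25 assembly genes had a median of -0.32, with 3 called lower, and the mitochondrial ribosomal protein genes also had a median of -0.32, with 3 of 77 called lower. Of all genes 12.2% were called in this comparison, in either direction. The other TOP mRNAs had a median of -0.30 and other genes of at least 100 RPKM one of -0.22. Myc had a log2 change of -1.02 ± 0.31 SE (limma adjusted p = 0.0564). Members with and without a long pyrimidine run had medians of -0.37 and -0.36. The summed level of NK and cytotoxic markers was 57.5 to 188 RPKM in aTregs and 22.0 to 40.2 RPKM in rTregs. Over all sorted libraries Nkg7 reached 141, Klrb1c 25.0 and Prf1 18.1 RPKM, while Gzma did not exceed 1.44 and Ncr1 0.265 RPKM, and the part of other cells in these changes was not tested.

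The last question was whether loss of p65 or c-Rel changed the members within a subset. In rTregs the median log2 change in limma was 0.01 for p65-deficient minus WT cells, with 44 of 82 members above 0, and 0.07 for c-Rel-deficient minus WT cells, with 63 above 0. In aTregs the medians were -0.05, with 24 above 0, and -0.04, with 30 above 0. Limma called no member and 0% of genes in each of the 4 comparisons, and at an unadjusted p under 0.05 there were 1, 0, 1 and 0 members, against 6.81%, 7.27%, 3.43% and 6.73% of genes. The authors' deposited table called 0 members in each, against 0.0337%, 0.0270%, 0.195% and 0.519% of its genes. Its medians over the members were -0.09 and -0.05 in rTregs, with 65 and 52 of 82 below 0, and 0.18 and 0.13 in aTregs, with 71 and 77 above 0. The sign of the member median was thus opposite to that of limma in all 4 comparisons. These medians were smaller than the differences between libraries of 1 group. Against the WT library of the same number, the rTreg median was -0.22 and 0.25 for p65-deficient cells and -0.24 and 0.39 for c-Rel-deficient cells. In aTregs 10 B cell markers summed to 25.9 to 39.8 RPKM in p65-deficient, 68.7 to 122 in c-Rel-deficient and 17.3 to 42.1 in WT cells. The sums of 9 myeloid markers were 2.02 to 4.38, 12.4 to 23.0 and 2.37 to 6.73 RPKM. Over the sorted libraries H2-Ab1 reached 45.6 RPKM, while Pax5 did not exceed 0.110 RPKM. The part of these markers was not tested.

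Nor was the change between subsets shown to depend on genotype. The difference of the aTreg minus rTreg changes, mutant minus WT, had a median over the members of -0.05 for p65 and -0.10 for c-Rel, and limma called no member and 0% of genes in either. At an unadjusted p under 0.05 there were 0 members in both, against 2.22% and 4.66% of genes. The widest such difference among the stalk genes was in Rplp1, at -0.53 ± 0.50 SE for c-Rel (limma adjusted p = 0.898). Differences in the subset change of the size of these SEs were not detectable.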

How the data were processed

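The authors deposited, per the file headers, RPKM per library with log2 fold changes and p-values of their own comparisons, in 1 table per set. The submitters' processing notes name STAR, DESeq2 1.10.1 and mm10. How the authors adjusted the sorted values is not described: 2.53% lie below 0, and equal values other than 0 occurred 15883 times between libraries with the same replicate number and 0 times otherwise. Rows with a date for a symbol (20 and 21) hold no values and were left out. Relative depth of the stimulated libraries came from the smallest steps of 2282 low genes, of which 96.8% were whole multiples within 0.05.

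Log2 was taken of RPKM plus 0.5, with negative values as 0, so changes of low genes are understated. Genes with at least 1 RPKM in 2 libraries were tested in limma 3.58.1 (R 4.3.3, group means, eBayes with trend, two-sided), adjusted by Benjamini-Hochberg at 0.05. The deposited p-values were adjusted likewise here. The procedure was tested on simulated data in which genes varied independently. The members varied together, so that this test does not give the power to find changes in them. Shared windows used GENCODE vM21 transcripts of GRCm38, and promoters RefSeq. Tables were handled with Python 3.11.15 and pandas 2.3.3. Named were the 5 highest and lowest means, the 3 highest and lowest SDs of group means, up to 5 called rises and falls of at least 5 RPKM, the stalk genes, and paralogs with their partners; other names were chosen after their values were seen. A few items that this rule names are not reported here. Members and lists were chosen with earlier results of these data known. In the sorted table the replicate number goes with a set of libraries adjusted together, and in the stimulated table the numbers were not shown to pair libraries, so that the replicate block was an alternative.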

Additional observations from a re-analysis of the deposited data

How the results depend on the processing

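Pseudocounts of 0.1 and 1, no filter, a filter of 3 RPKM and median-of-ratios scaling (factors from 0.964 to 1.05) moved no count of called ribosomal protein genes by over 1.5 times. Between pentoxifylline and water these settings and the replicate block gave 11 to 14 members (14 with the block), and leaving out 1 library gave 6 to 16, the lowest without water replicate 2. Between pentoxifylline and c-Rel-deficient cells they gave 18 to 25 (25 with the block), and leaving out 1 library gave 14 to 24. The share of all genes called moved too. Between pentoxifylline and water it was 43.5% in the fit used above and 46.2% with the block. Between pentoxifylline and c-Rel-deficient cells it was 48.4% and 50.9%. It also moved when 1 library was left out, which leaves 1 library in a group. The counts of members alone thus cannot show whether the members were stable. Between c-Rel-deficient cells and water neither these settings nor the block called a member. The fit used above called 0% of genes there and the block 0.0101%. Between WT aTregs and rTregs the block called 1 member, Rps19, and leaving out 1 library gave 0 to 6, with 6 without WT aTreg replicate 3 and 2 (Rps19bp1 and Rps23) without WT rTreg replicate 2. Between c-Rel-deficient aTregs and rTregs the block called 1 member, again Rps19, and in the other sorted comparisons no setting called any. The correlation of deviations between libraries of the same number ranged from -0.07 to 0.40 in the stimulated set and from -0.49 to 0.44 in the sorted set. The sorted values had been adjusted in sets that go with the replicate number, so these correlations cannot show whether the block applies there. The cause of these shifts was not tested. For the 19 changes of named genes, 225 values were recomputed: none reversed, 205 kept their side of the threshold and 20 lost it. Groups of 2 libraries, unknown depth in the sorted set and shared reads limit the precision of every value.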
